A study of Mus musculus with 6 samples.

Results

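The tumour necrosis factor (TNF) superfamily ligands and receptors were described in cultured mouse peritoneal macrophages, the phagocytes of the abdominal cavity. Members were all protein-coding genes whose symbols begin with Tnfsf or Tnfrsf, together with Tnf, Lta, Ltb, Ltbr, Fas, Fasl, Cd27, Cd70 and Cd40lg. The rule used no measured value and found 41 genes of the 54532 in the count table, namely 18 ligands and 23 receptors. Messenger RNA was sequenced from 3 libraries labelled with the genotype Rfx1 overexpression and 3 labelled as negative control, all from macrophages grown in medium with 10% fetal bovine serum. Rfx1 encodes a DNA-binding protein of the RFX family of transcription factors. The sources used here do not give how Rfx1 was introduced, what the control cells received, or whether libraries of a group came from different mice or cultures, so p-values describe the spread between these libraries, which may be technical. The comparison addresses which of these transcripts differ when Rfx1 is overexpressed.

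TNF superfamily ligands are mostly membrane-bound trimers, some of which are shed, and they bind receptors with cysteine-rich extracellular domains. Some of the receptors carry a cytoplasmic death domain that can recruit caspases, others bind TRAF adaptor proteins that activate NF-kB and MAP kinases, and decoy receptors bind ligand without passing on a signal. Macrophages are a known source of TNF and of the B cell survival factor BAFF, and many members are known to be induced during macrophage activation.

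Libraries held 16461277 to 18795575 counts, and pairs of libraries correlated at 0.931 to 0.978 inside a group and at 0.837 to 0.932 across groups (log2 CPM). Values are counts per 1e6 (CPM) on scaled library sizes, with mean ± SD over n = 3 libraries per group. Over all 6 libraries the labels were not borne out by Rfx1 itself (log2 difference 0.27 ± 0.58 SE, edgeR adjusted p = 0.80). Rfx1 had 40.8, 36.4 and 23.2 CPM in overexpression 1, 2 and 3 and 57.6, 10.97 and 14.8 CPM in control 1, 2 and 3. The library labelled control 1 thus held the most Rfx1 transcript of all 6, while control 2 and 3 lay below every overexpression library. Dropping control 1 put Rfx1 1.37 log2 units higher with overexpression (edgeR adjusted p = 0.024). Dropping control 2 or control 3 instead gave -0.10 and -0.044, and dropping an overexpression library gave 0.12 to 0.47, none of which passed. Every direction below rests on the labels. All 10 macrophage markers were detected at 21.6 CPM or more in every library. Their levels were not all alike between groups, since 3 rose in edgeR (Cd14, Adgre1 and Itgam) and none fell. Cd14 had 4518, 3810 and 1387 CPM in overexpression 1, 2 and 3 and 263, 218 and 177 CPM in control 1, 2 and 3. The lysozyme gene Lyz2 was far apart between libraries, at 44.7, 40.8 and 29281 CPM in overexpression 1, 2 and 3 and 15672, 38702 and 28352 CPM in control 1, 2 and 3. The libraries labelled overexpression 1 and 2 therefore stood apart from overexpression 3. Results are also given below for overexpression 3 alone against the controls, a comparison added after seeing the data in which the lone library was assumed to vary like the controls.

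Of the 41 members, 30 had enough counts to be tested. Among them 7 rose (Tnf, Tnfsf9, Tnfsf11, Tnfsf13b, Tnfsf14, Tnfrsf9 and Fas), 3 fell (Tnfsf13, Tnfsfm13 and Tnfrsf11a) and 20 did not pass edgeR's quasi-likelihood test at an adjusted p of 0.05. Over all 13454 genes tested, 6.9% rose and 5.97% fell, against 23.3% and 10.0% of the 30 tested members. Members that are low in a group reach the test through the other group, so these shares are a description. The 3 libraries of each group did not overlap in any of the 10 called members. Of the 30 tested members, 10 had all overexpression libraries above all controls and 4 had all below, against 16.3% and 17.1% of all genes tested. Of the ligands 5 rose and 2 fell, of 18 in all and 11 tested, with a median log2 difference of 0.89 over those tested. The 2 that fell, Tnfsf13 and Tnfsfm13, share exon bases and may share reads. Of the receptors 2 rose and 1 fell, of 23 in all and 19 tested, with a median log2 difference of 0.29. The median over all genes tested was -0.0060. No test was made of ligands against receptors.

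**Figure D1:**
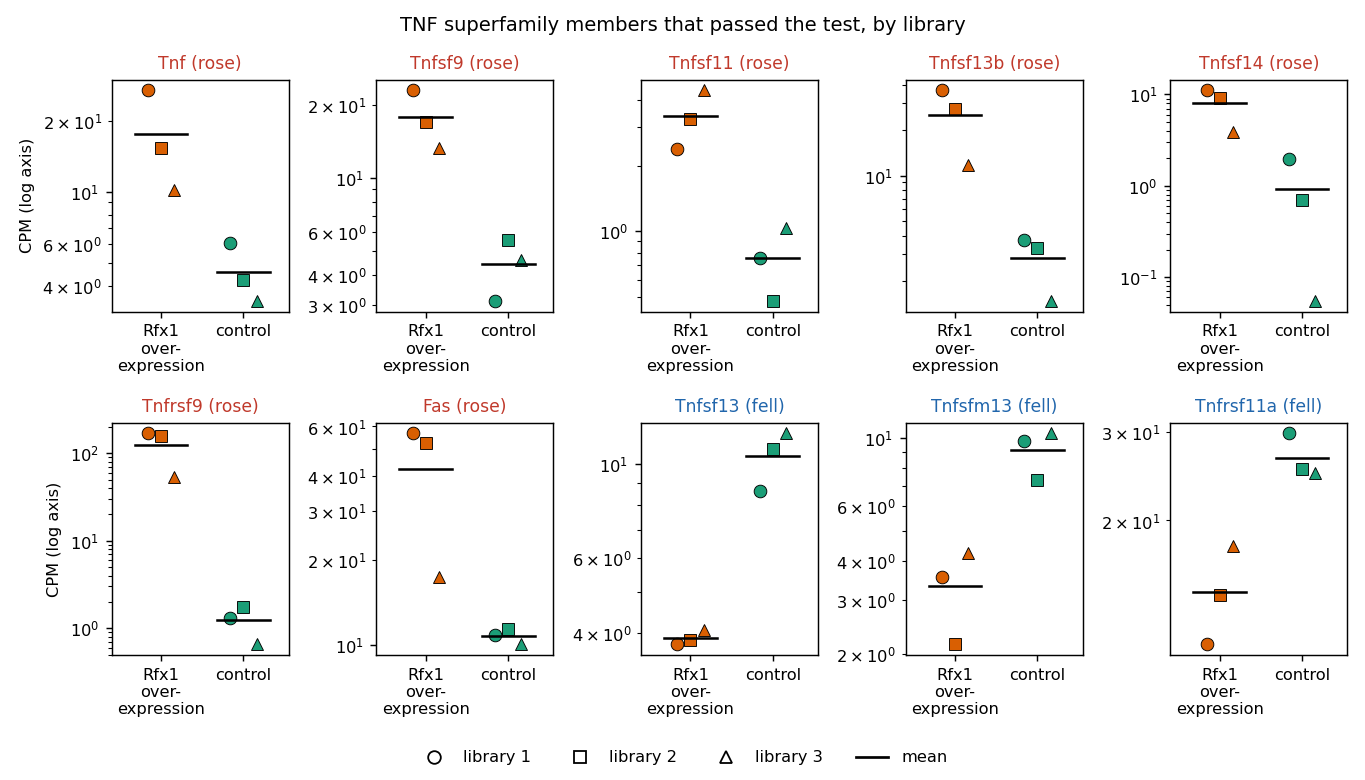
CPM on log axes in each library for the 10 members that passed the test, with overexpression libraries on the left, control libraries on the right, symbols for library numbers and a bar at the mean. The groups do not overlap in any panel, and overexpression 3 (triangle) is the lowest overexpression library in 6 of the 7 members that rose and the highest in all 3 that fell.

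The receptor gene Tnfrsf9 showed the largest difference of all members. It encodes 4-1BB (CD137), a costimulatory receptor best known on activated T cells. Tnfrsf9 (ENSMUSG00000028965, mm10 chromosome 4, positions 150914562 to 150946102, + strand) had 168, 156 and 52.8 CPM in overexpression 1, 2 and 3 and 1.32, 1.76 and 0.654 CPM in control 1, 2 and 3. The lowest overexpression library lay far above the highest control, and overexpression 3 was the lowest of its group. Means were 126 ± 63.3 CPM with overexpression and 1.24 ± 0.555 CPM in controls, a 100.1-fold rise (log2 difference 6.64 ± 0.56 SE, edgeR adjusted p = 2.4e-04). The call held with any single library left out (edgeR adjusted p 4.0e-07 to 0.0038) and for overexpression 3 alone against the controls, where the log2 difference was 5.40 (edgeR adjusted p = 0.0010). The counts come from bulk RNA, in which more cells expressing a gene and more RNA per cell cannot be told apart.

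Its ligand, Tnfsf9 (4-1BB ligand; ENSMUSG00000035678, chromosome 17, positions 57105325 to 57107757, + strand), rose as well. Tnfsf9 had 22.9, 17.1 and 13.3 CPM in overexpression 1, 2 and 3, against 3.12, 5.54 and 4.58 CPM in control 1, 2 and 3. All overexpression libraries were above all controls. A noncoding gene on the opposite strand covers 14.9% of its exon bases. Means were 17.8 ± 4.83 CPM with overexpression and 4.41 ± 1.22 CPM in controls (log2 difference 2.01 ± 0.32 SE, edgeR adjusted p = 0.0039). Ligand and receptor pairs with an untested partner, such as Fasl and Fas, could not be called in both. Among the 27 pairs listed, that of Tnfsf9 and Tnfrsf9 was the sole one in which both partners rose. The call held with any single library left out, at edgeR adjusted p-values up to 0.023, while overexpression 3 alone gave a log2 difference of 1.60 (edgeR adjusted p = 0.087). Per kilobase of exon, the level of Tnfrsf9 was 3.48, 4.33 and 1.88 times that of Tnfsf9 in overexpression 1, 2 and 3, and 0.201, 0.150 and 0.0677 times in control 1, 2 and 3. The receptor transcript was thus the higher of the pair in every overexpression library and the lower in every control.

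Tnfsf13b (ENSMUSG00000031497, chromosome 8, positions 10006467 to 10039072, + strand) encodes BAFF, a cytokine needed for B cell survival. It had 36.7, 27.4 and 11.7 CPM in overexpression 1, 2 and 3 and 3.73, 3.30 and 1.47 CPM in control 1, 2 and 3. In each group the library numbered 3 was the lowest, and the groups were apart. Means were 25.3 ± 12.6 CPM with overexpression and 2.83 ± 1.199 CPM in controls (log2 difference 3.15 ± 0.48 SE, edgeR adjusted p = 0.0034), and the call held with any single library left out (edgeR adjusted p up to 0.025). Overexpression 3 alone gave a log2 difference of 2.05 (edgeR adjusted p = 0.086).

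Tnfsf13 (ENSMUSG00000089669, chromosome 11, positions 69682846 to 69685784, - strand), which encodes APRIL, a cytokine related to BAFF that shares receptors with it, moved the other way. It had 3.76, 3.85 and 4.07 CPM in overexpression 1, 2 and 3, against 8.64, 10.8 and 11.8 CPM in control 1, 2 and 3. The overexpression libraries lay close together, below all controls. An antisense gene covers 13.5% of its exon bases. Means were 3.90 ± 0.159 CPM with overexpression and 10.4 ± 1.61 CPM in controls (log2 difference -1.42 ± 0.27 SE, edgeR adjusted p = 0.0094). The adjusted p was 0.054, 0.053 and 0.053 (edgeR) without overexpression 2, control 2 or control 3, and the log2 difference was -1.34 for overexpression 3 alone (edgeR adjusted p = 0.12).

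Tnfsfm13 is an annotated read-through gene on the same strand, and 44.0% of its exon bases lie in Tnfsf13 and 32.7% in Tnfsf12. In turn, 60.0% of the exon bases of Tnfsf13 and 48.3% of those of Tnfsf12 lie in Tnfsfm13. Reads, and with them levels per kilobase, cannot be assigned to these genes with certainty. Tnfsfm13 had 3.56, 2.15 and 4.25 CPM in overexpression 1, 2 and 3 and 9.78, 7.29 and 10.3 CPM in control 1, 2 and 3 (log2 difference -1.46 ± 0.34 SE, edgeR adjusted p = 0.021). The edgeR adjusted p was 0.093 without overexpression 2, and 0.051, 0.055 and 0.085 without control 1, 2 and 3 in turn. Tnfsf12, the neighbouring gene of the cytokine TWEAK, had 59.7, 38.2 and 40.4 CPM in overexpression 1, 2 and 3, against 53.9, 50.3 and 54.1 CPM in the controls (log2 difference -0.20 ± 0.22 SE, edgeR adjusted p = 0.62). Its groups overlapped.

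The BAFF and APRIL receptor genes gave lower values with overexpression and none passed the main test. Tnfrsf13b, the gene of the shared receptor TACI, had 9.65, 12.2 and 12.2 CPM in overexpression 1, 2 and 3 and 20.2, 24.0 and 14.7 CPM in control 1, 2 and 3. The groups were apart, but the test gave edgeR adjusted p = 0.071 (log2 difference -0.79 ± 0.25 SE). It was 0.042 with DESeq2 and 0.049 without overexpression 3 in edgeR. Tnfrsf13c, the BAFF receptor gene, had 1.19 ± 0.515 CPM with overexpression and 2.04 ± 0.328 CPM in controls (edgeR adjusted p = 0.34). Tnfrsf17, the gene of the plasma cell receptor BCMA, had 0 counts in all overexpression libraries against 4, 8 and 3 counts in control 1, 2 and 3, and was not tested. Taking the overexpression group at its limit of 3 counts in total, it was at least 4.22-fold lower. The summed level of 9 B cell markers was 110 to 185 CPM with overexpression and 185 to 312 CPM in controls, most of it from Ighm and Blnk, and of the 8 tested 1 fell (Blnk) and none rose. The part of B cells in these receptor values was not tested.

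Tnf (ENSMUSG00000024401, chromosome 17, positions 35199381 to 35202007, - strand), the founding cytokine of the family, had 26.9, 15.4 and 10.2 CPM in overexpression 1, 2 and 3 and 6.05, 4.21 and 3.44 CPM in control 1, 2 and 3. The groups did not overlap. The log2 difference was 1.93 ± 0.39 SE (edgeR adjusted p = 0.011). It was 1.89 without control 2 (edgeR adjusted p = 0.064) and 1.17 for overexpression 3 alone (edgeR adjusted p = 0.21). The neighbouring lymphotoxin genes lie within 10.9 kb with Tnf. Lta, the secreted lymphotoxin, had too few counts to be tested, 33 in the overexpression libraries and 12 in the controls. They were 11, 19 and 3 in overexpression 1, 2 and 3 and 7, 4 and 1 in control 1, 2 and 3, and the groups overlapped. The ratio of summed scaled counts was 3.26 (95% counting interval 1.64 to 6.93), an interval that leaves out the spread between libraries. Ltb, the membrane partner of Lta, had 3.63, 2.49 and 1.77 CPM in overexpression 1, 2 and 3 and 4.82, 2.82 and 2.13 CPM in the controls (edgeR adjusted p = 0.69).

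The TNF receptor genes showed no detected difference. Tnfrsf1a, the death-domain TNF receptor, had 166, 160 and 117 CPM in overexpression 1, 2 and 3 and 142, 131 and 114 CPM in control 1, 2 and 3 (log2 difference 0.19 ± 0.22 SE, edgeR adjusted p = 0.61). Tnfrsf1b, the TNF receptor that binds TRAF proteins and lacks a death domain, had 579, 687 and 746 CPM with overexpression and 814, 535 and 561 CPM in controls (log2 difference 0.08 ± 0.26 SE, edgeR adjusted p = 0.88). Both overlapped between groups, and when libraries were scaled by total count alone, which put the median of all genes at -0.20, the differences were -0.022 and -0.12. Per kilobase, Tnfrsf1b exceeded Tnfrsf1a 2.37 to 4.33 times in the overexpression libraries and 2.76 to 3.88 times in the controls.

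Tnfsf14 (ENSMUSG00000005824, chromosome 17, positions 57189492 to 57194177, - strand) encodes LIGHT, which binds the lymphotoxin beta receptor and HVEM. It had 11.1, 9.12 and 3.90 CPM in overexpression 1, 2 and 3 and 1.98, 0.692 and 0.0545 CPM in control 1, 2 and 3. The control libraries spread over a wider ratio than the overexpression ones, and the groups did not overlap. The log2 difference was 3.11 ± 0.83 SE (edgeR adjusted p = 0.040). It lost its call without overexpression 1, overexpression 2 or control 2 (edgeR adjusted p = 0.12, 0.12 and 0.14) and under scaling by total count alone (0.058), and overexpression 3 alone gave 2.08 (edgeR adjusted p = 0.46). Of its receptor genes, Tnfrsf14 (HVEM) had 12.2, 21.2 and 20.8 CPM with overexpression and 14.0, 5.11 and 6.11 CPM in control 1, 2 and 3. Control 1 was the highest control and lay above overexpression 1. The log2 difference was 1.10 ± 0.40 SE (edgeR adjusted p = 0.10), and 1.69 without control 1 (edgeR adjusted p = 0.013). It also passed with DESeq2 (adjusted p = 0.045). Ltbr, the lymphotoxin beta receptor, had 74.6 ± 22.8 CPM with overexpression and 70.4 ± 7.40 CPM in controls (edgeR adjusted p = 0.86).

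Tnfsf11 and Tnfrsf11a, the genes of RANK ligand and its receptor RANK, changed in opposite directions. RANK signalling is known to drive osteoclast formation from cells of the macrophage lineage. Tnfsf11 (ENSMUSG00000022015, chromosome 14, positions 78277445 to 78308043, - strand) had 2.39, 3.29 and 4.43 CPM in overexpression 1, 2 and 3 and 0.756, 0.479 and 1.04 CPM in control 1, 2 and 3 (log2 difference 2.15 ± 0.49 SE, edgeR adjusted p = 0.019). It was the risen member in which overexpression 3 was the highest library, and the edgeR adjusted p was 0.072 without overexpression 2 and 0.088 without control 2. Overexpression 3 alone gave 2.55 (edgeR adjusted p = 0.077).

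Tnfrsf11a (ENSMUSG00000026321, chromosome 1, positions 105780718 to 105847981, + strand) had 11.4, 14.2 and 17.8 CPM in overexpression 1, 2 and 3, against 29.8, 25.3 and 24.8 CPM in control 1, 2 and 3. All overexpression libraries were below all controls. The log2 difference was -0.88 ± 0.23 SE (edgeR adjusted p = 0.035), and the call was lost when any library other than overexpression 3 was left out (edgeR adjusted p 0.076 to 0.14). Overexpression 3 alone gave -0.58 (edgeR adjusted p = 0.34). Tnfrsf11b, the secreted decoy osteoprotegerin, had 0, 0 and 8 counts in overexpression 1, 2 and 3 and 6, 8 and 11 counts in the controls, too few to be tested.

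Fas (ENSMUSG00000024778, chromosome 19, positions 34290666 to 34327772, + strand), a death-domain receptor that can start apoptosis, was the other receptor gene that rose. It had 56.7, 52.5 and 17.5 CPM in overexpression 1, 2 and 3 and 10.8, 11.4 and 10.0 CPM in control 1, 2 and 3. Overexpression 3, at 17.5 CPM, was the nearest of its group to the controls. The log2 difference was 1.97 ± 0.39 SE (edgeR adjusted p = 0.011), and the edgeR adjusted p was 0.058 without overexpression 2 and 0.056 without control 2. For overexpression 3 alone the log2 difference was 0.71 (edgeR adjusted p = 0.26). Fasl, the gene of its ligand, had 5, 0 and 0 counts in overexpression 1, 2 and 3 and 23, 1 and 1 counts in control 1, 2 and 3. Nearly all Fasl counts of the controls came from control 1, in which 10 T cell markers also had their highest summed level, 92.0 CPM, against 52.4 and 28.1 CPM in control 2 and 3 and 6.55 to 20.7 CPM with overexpression. Cd28 made up most of each control sum, at 54.2, 47.2 and 22.5 CPM in control 1, 2 and 3. With overexpression it had 1.09, 0.963 and 1.12 CPM. The order of control 2 and 3 above the overexpression libraries rested on Cd28 and did not hold for every marker. Lck had 8.07, 7.25 and 2.42 CPM with overexpression and 7.65, 1.81 and 2.84 CPM in control 1, 2 and 3. Of the 6 markers tested, Cd28 fell and none rose, with 2 log2 differences above 0 and 4 below. The part of T cells in the Fasl counts was not tested.

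The remaining death-domain receptor genes did not pass. Tnfrsf21, which encodes death receptor 6, had 66.6, 115 and 123 CPM in overexpression 1, 2 and 3 and 64.1, 63.6 and 58.4 CPM in control 1, 2 and 3. The groups were apart, by little in overexpression 1 (log2 difference 0.71 ± 0.25 SE, edgeR adjusted p = 0.098), and without overexpression 1 the adjusted p was 0.018. Tnfrsf10b, the mouse receptor for TRAIL, had 2.76 ± 0.919 CPM with overexpression and 2.79 ± 0.253 CPM in controls (edgeR adjusted p = 0.99). Tnfrsf25, the receptor for the ligand TL1A, had 0.525 ± 0.356 CPM with overexpression and 0.422 ± 0.320 CPM in controls (edgeR adjusted p = 0.86). Tnfsf10, the gene of TRAIL, had 0.411, 0.680 and 0.944 CPM with overexpression and 2.17, 0.639 and 0.0545 CPM in control 1, 2 and 3, a control spread that covers all overexpression values. Tnfsf15, the gene of TL1A, had 0, 1.76 and 1.42 CPM in overexpression 1, 2 and 3 and 0.897, 0.426 and 0.382 CPM in the controls.

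Tnfrsf22 and Tnfrsf23 encode mouse decoy receptors for TRAIL and lie beside Tnfrsf26 on chromosome 7 within 78.2 kb. Tnfrsf23 had 20.4, 24.8 and 21.2 CPM in overexpression 1, 2 and 3 and 16.2, 14.3 and 12.6 CPM in control 1, 2 and 3. The groups were apart, and the log2 difference of 0.62 ± 0.22 SE had edgeR adjusted p = 0.089. Tnfrsf22 had 3.86 ± 0.638 CPM with overexpression and 2.92 ± 1.12 CPM in controls (edgeR adjusted p = 0.56). Tnfrsf26 had 57.5 ± 3.47 CPM with overexpression and 50.4 ± 5.88 CPM in controls (edgeR adjusted p = 0.57). These genes are similar to each other, so reads may be shared among them, and an antisense gene overlaps Tnfrsf23 and Tnfrsf26.

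Among the costimulatory receptor genes other than Tnfrsf9, Tnfrsf4 (OX40) had 2.33, 3.34 and 0.708 CPM in overexpression 1, 2 and 3 and 0.567, 0.532 and 0.873 CPM in the controls. Overexpression 3 lay within the controls, and the log2 difference of 1.69 ± 0.63 SE had edgeR adjusted p = 0.11, or 0.017 without overexpression 3. Tnfrsf18 (GITR) had 1.07 ± 0.674 CPM with overexpression and 0.519 ± 0.251 CPM in controls (edgeR adjusted p = 0.38), with an antisense gene over 27.2% of its exon bases. Tnfrsf8 (CD30) had 3.28, 3.23 and 3.78 CPM with overexpression and 2.22, 2.66 and 2.35 CPM in controls, groups that were apart without passing (log2 difference 0.51 ± 0.35 SE, edgeR adjusted p = 0.38). Tnfrsf12a, the receptor of TWEAK, had 19.6 ± 3.59 CPM with overexpression and 28.0 ± 6.94 CPM in controls, with overlapping groups (log2 difference -0.52 ± 0.25 SE, edgeR adjusted p = 0.22).

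The 11 members that were not tested had at most 23 counts in any library. Cd27, a costimulatory receptor of T and B cells, had 0, 1 and 2 counts in overexpression 1, 2 and 3 and 19, 11 and 3 counts in control 1, 2 and 3, or 0.108 as a ratio (95% counting interval 0.0211 to 0.343). Cd40lg, the T cell ligand of CD40, had 3 counts over the overexpression libraries and 12 over the controls (ratio 0.296, 95% counting interval 0.0536 to 1.10). Tnfrsf19, which encodes TROY, had 5 counts with overexpression, all in overexpression 3, and 30 in controls (ratio 0.197, interval 0.0598 to 0.514). The ligand genes Tnfsf4, Tnfsf8, Tnfsf18 and Cd70 (for OX40, CD30, GITR and CD27) had 11, 13, 1 and 1 counts with overexpression and 5, 15, 8 and 1 counts in controls. Their counting intervals all included a ratio of no change. Intervals and floors cover counting error alone.

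**Figure D2:**
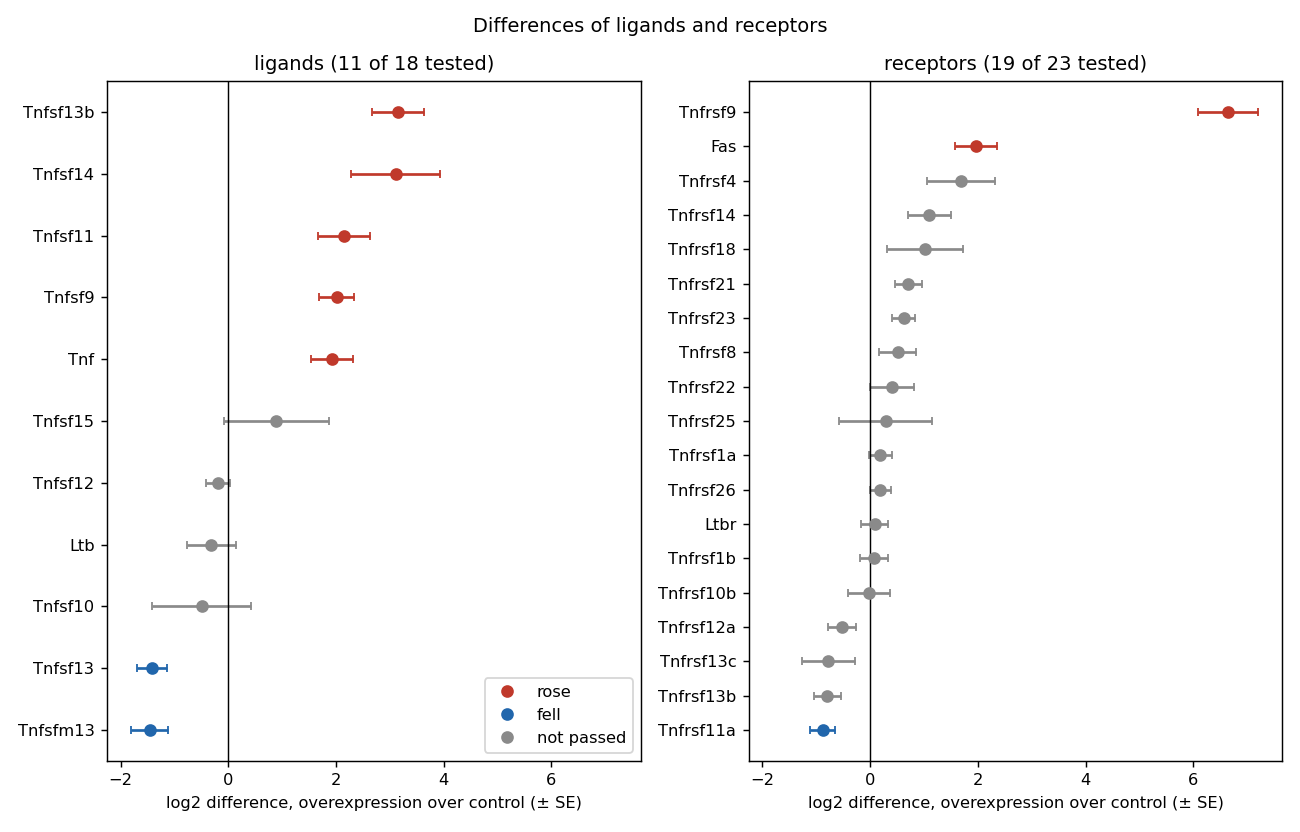
Log2 differences (overexpression over control, ± SE) of the 11 tested ligands and 19 tested receptors, coloured by whether the gene rose, fell or did not pass. Tnfrsf9 at 6.64 lies far to the right of all other members, and most receptors lie within 1 log2 unit of 0.

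Levels were compared between genes per kilobase of exon. Among the ligands, Tnfsf12 had the highest level in both groups, 30.4 ± 7.79 CPM per kb with overexpression and 34.8 ± 1.43 CPM per kb in controls. Its share of the summed ligand level was 38.8 to 47.9% in the overexpression libraries and 60.8 to 64.2% in the controls. With overexpression Tnfsf9 (13.8 ± 3.75 CPM per kb) and Tnf (10.7 ± 5.21 CPM per kb) came next. Tnfsf9 was the higher in every overexpression library, with 17.8, 13.2 and 10.3 against 16.4, 9.37 and 6.23 CPM per kb. This difference was not tested. In controls the next were Tnfsf13 (6.36 ± 0.981 CPM per kb), Tnfsfm13 (4.08 ± 0.720), Tnfsf9 (3.42 ± 0.945) and Tnf (2.78 ± 0.818), the last 3 of which overlapped within their spread. Summed over all 18 ligands, the level was 93.1, 65.1 and 55.6 CPM per kb in overexpression 1, 2 and 3 and 58.5, 53.6 and 55.6 CPM per kb in control 1, 2 and 3. Overexpression 3 therefore lay within the control range in the sum, while its make-up differed.

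Among the receptors, Tnfrsf1b had the highest level in both groups, at 36.3 to 50.6% of the summed receptor level with overexpression and 47.1 to 56.4% in controls. Tnfrsf1a was next in both. Tnfrsf9 ranked 3 of 23 with overexpression, at 14.8, 13.1 and 5.03% of the receptor sum in overexpression 1, 2 and 3, and 17 of 23 in controls, at 0.128, 0.217 and 0.0819%. The summed receptor level was 417, 438 and 386 CPM per kb in overexpression 1, 2 and 3 and 378, 297 and 293 CPM per kb in control 1, 2 and 3. Control 1 was the highest control and close to overexpression 3.

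**Figure D3:**
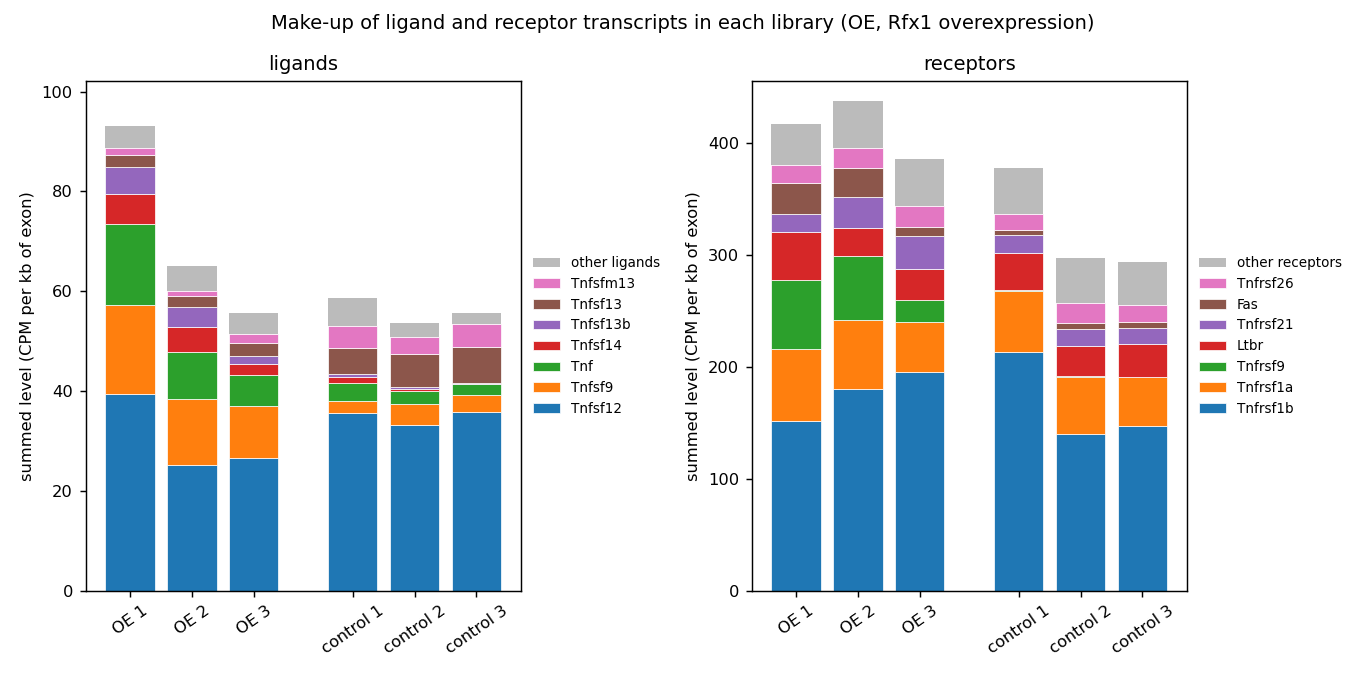
Stacked bars of CPM per kb of exon for the ligands (left) and receptors (right) in each library, overexpression libraries first, with 7 named genes and the rest in grey. Tnfsf9 and Tnf take a larger part of the ligand bars in the overexpression libraries, and Tnfrsf9 (green, receptors) forms a visible segment there and none in the controls.

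Genes of the superfamily whose symbols lack the prefix lie outside the rule and are given for completeness. Cd40, the receptor of CD40 ligand, had 53.2, 44.0 and 12.9 CPM in overexpression 1, 2 and 3 and 8.45, 7.24 and 4.14 CPM in control 1, 2 and 3 (log2 difference 2.47 ± 0.50 SE, edgeR adjusted p = 0.013). The edgeR adjusted p was 0.051, 0.054 and 0.056 without overexpression 1, overexpression 2 or control 2. Relt had 24.8, 19.3 and 16.9 CPM with overexpression and 12.7, 8.89 and 8.73 CPM in controls (log2 difference 1.01 ± 0.26 SE, edgeR adjusted p = 0.032), which was lost under scaling by total count alone (0.093) and without overexpression 1, overexpression 2, control 2 or control 3 (0.075, 0.10, 0.13 and 0.14). Ngfr, the nerve growth factor receptor gene, had 0 counts in all overexpression libraries and 26, 23 and 31 counts in control 1, 2 and 3, at least 22.5-fold lower (edgeR adjusted p = 0.0047). The summed level of 8 mesothelial markers was 2.19 to 8.20 CPM with overexpression and 24.8 to 154 CPM in controls, with 4 of 6 tested lower. The 7 fibroblast markers summed to 282 to 803 CPM with overexpression and 656 to 1707 CPM in controls, and of the 7 tested 3 fell (Pdgfra, Lum and Ogn) and none rose. In the overexpression group both sums were highest in overexpression 3, the library that held all its counts of Tnfrsf19 and Tnfrsf11b. The part of these cells in the Ngfr, Tnfrsf19 and Tnfrsf11b values was not tested. Eda2r and Edaradd did not pass (edgeR adjusted p = 0.80 and 0.83), and Eda and Edar had too few counts to be tested.

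Downstream, 15 of 49 tested genes of the signalling machinery rose and none fell in edgeR, against 6.9% and 5.97% of all genes. At an unadjusted p under 0.05 (edgeR), 24 were higher and 2 lower, and neither DESeq2 nor limma-voom called a fall. The share of all genes at that unadjusted threshold was not counted, so these counts only describe the list. The list was drawn up with earlier results of these data known. The largest difference was in Traf1, an adaptor induced by NF-kB, with 115, 86.4 and 37.7 CPM in overexpression 1, 2 and 3 and 18.4, 9.85 and 10.1 CPM in control 1, 2 and 3 (log2 difference 2.64 ± 0.42 SE, edgeR adjusted p = 0.0046). Birc3, the ubiquitin ligase cIAP2 that binds TRAF proteins, had 94.1, 131 and 84.3 CPM with overexpression and 33.2, 28.2 and 20.4 CPM in controls (log2 difference 1.92 ± 0.26 SE, edgeR adjusted p = 0.0022).

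Inhibitors of NF-kB were among those that rose. Tnfaip3, the ubiquitin-editing enzyme A20, had 80.3, 111 and 91.6 CPM in overexpression 1, 2 and 3 and 35.7, 29.1 and 33.8 CPM in control 1, 2 and 3 (edgeR adjusted p = 0.0024). Nfkbia, which encodes the inhibitor IkB-alpha, had 103, 144 and 108 CPM with overexpression and 44.8, 40.0 and 37.6 CPM in controls (edgeR adjusted p = 0.0024). The A20-binding protein gene Tnip3 had log2 difference 2.04 ± 0.31 SE and the NF-kB subunit gene Relb 1.44 ± 0.24 SE (edgeR adjusted p = 0.0034 and 0.0051). In these genes overexpression 3 lay among the other overexpression libraries.

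Among the others that rose were Traf6, Mlkl, Rhbdf2, Tnip2, Traf3, Cflar, Nfkb2 and Rnf31. Mlkl encodes the executioner of necroptosis and Rhbdf2 a partner of the enzyme that sheds TNF. The adaptor genes Tradd and Fadd and the kinase gene Ripk1, which act at death-domain receptors, had log2 differences of -0.05, -0.65 and -0.38 and did not pass (edgeR adjusted p = 0.92, 0.10 and 0.30), nor did the sheddase gene Adam17 (log2 difference 0.60, edgeR adjusted p = 0.14). Under scaling by total count alone, and without overexpression 2, control 2 or control 3, the number that rose was 9 in each case. For overexpression 3 alone it was 5.

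**Figure D4:**
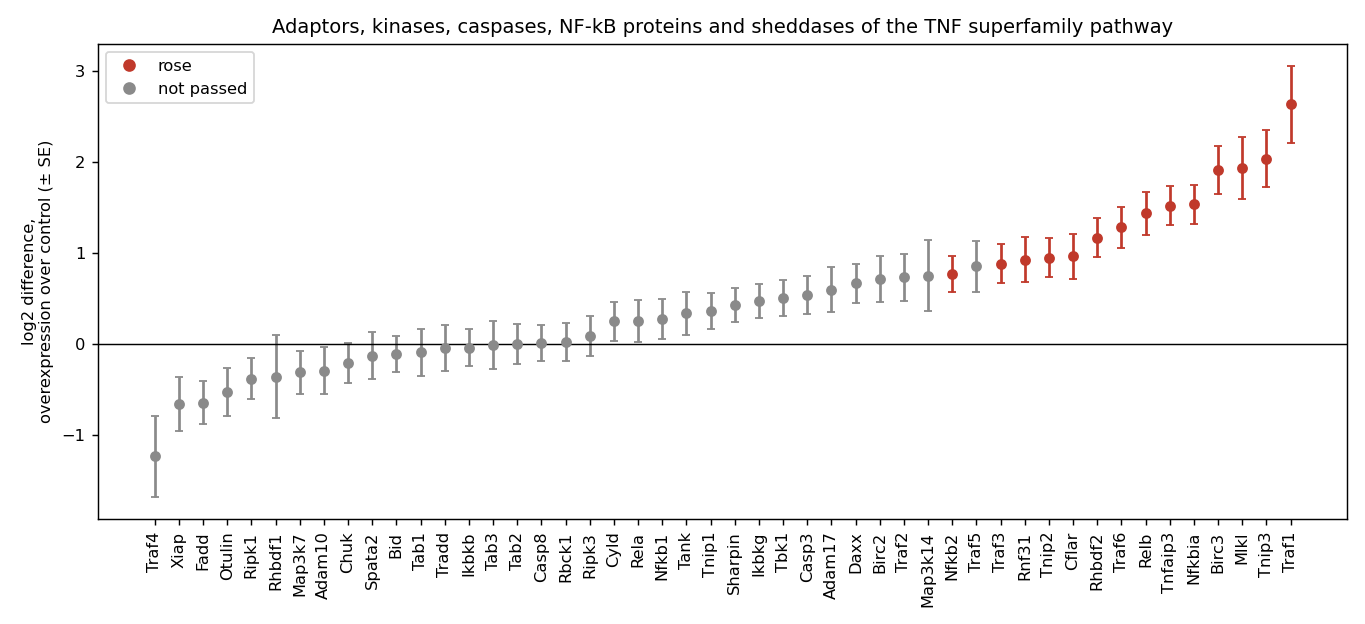
Log2 differences (overexpression over control, ± SE) of 48 signalling genes in order of size, red where the gene rose. Of these, 33 lie above 0 and 15 below, and the 14 that rose all lie at 0.77 or more.

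Members that rose did not all share neighbours. Members fell into 9 runs of genes within 200 kb of each other. Tnfsf9 and Tnfsf14 rose and lie within 88.9 kb on chromosome 17 with Cd70, which had 1 count in each group. Tnf rose between Ltb and Lta, and Tnfsf13 and Tnfsfm13 fell beside Tnfsf12. In the other 6 runs no member passed edgeR's test.

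The windows from 250 bases before to 50 after the annotated starts (RefSeq, GRCm38.p6) were searched on both strands for 5 motifs, to set the letters of members that changed beside those of the others. Of 41 members, 32 had a window, among them 6 of the 7 that rose and all 3 that fell. The AP-1 motif TGANTCA was in the windows of 4 of the 6 risen members (Fas, Tnfrsf9, Tnfsf13b and Tnfsf14), in 1 of the 3 fallen (Tnfsf13) and in 1 of the 23 others (Tnfrsf8), against 8.97% of all 27025 genes with a window and 12.83% of the 678 that rose in edgeR over the whole table. The 30 bases around each match are shown to set them side by side, 5′ to 3′ on the gene's strand, with the match in capitals.
Fas (chr19:34290437-34290466): ctgtgcagtggTGAGTCAgtgggtttcccc
Tnfrsf9 (chr4:150927973-150928002): ccctgctcagtTGAGTCAcaggtcctgtgt
Tnfsf13b (chr8:10006495-10006524): cttgtctggagTGAGTCAgtctgaacccca
Tnfsf14 (chr17:57194323-57194352): tccatcccaccTGAGTCAcattttctggaa
Tnfsf13 (chr11:69685669-69685698): tcattcatgccTGAGTCAgagtctaccaca
Tnfrsf8 (chr4:145315278-145315307): gtggctagcccTGAGTCAtctctgcacgtg
The motif leaves only its middle letter free, and this was G in all 6, while the flanking letters differed between genes. The matches in Tnfrsf9, Tnfsf13b and Tnfsf13 lie in annotated exons. Such exons cover 81, 166 and 230 of the 250 bases before the starts used for these genes. For Tnfrsf9 and Tnfsf13b that is the second annotated start. Fas, Tnfsf14 and Tnfrsf8 had no annotated exon in that stretch.

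The NF-kB consensus motif was in the windows of 3 of the 32 members (Ltb, Tnfrsf8 and Tnfrsf9), against 5.14% of all genes and 9.29% of those that rose. In Tnfrsf9 it lay between positions -43 and -33 of the second of its annotated starts, shown because this gene changed most. Within 250 bases before that start, 81 lie in exons of transcripts that begin further upstream.
Tnfrsf9 (chr4:150927947-150927976): agagcagctGGGGATTTCCCaggaggccct
The capitals mark the consensus, which matched in a pair of overlapping frames, and the AP-1 match shown above lies downstream of it.

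The interferon-response (ISRE) core, a pair of GAAA runs 2 bases apart, was in 4 of 32 windows (Tnfrsf14, Tnfrsf17, Tnfrsf1b and Tnfsf13b), against 3.99% of all genes and 9.0% of those that rose. The match in Tnfsf13b is shown as the single one among risen members, and it too lies in an annotated exon before the second start.
Tnfsf13b (chr8:10006607-10006636): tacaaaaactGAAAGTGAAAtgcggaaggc
The STAT motif TTCNNNGAA was in 9 of 32 windows, 2 of them of risen members, against 9.55% of all genes. The X-box consensus motif, the letters RFX proteins are known to bind, was in none of the 32 windows and in 0.8% of all genes. A match describes letters in these windows and does not mark a bound site.

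Among the risen members, the windows of Tnf and Tnfsf11 held none of the 5 motifs. Tnfsf11 had no annotated exon in the 250 bases before its start and is not shown. The 250 bases before the start of Tnf are shown beside those of Fas and Tnfsf14, 2 other risen genes with no annotated exon there. AP-1 matches are in capitals.
Tnf (chr17:35202008-35202257, - strand): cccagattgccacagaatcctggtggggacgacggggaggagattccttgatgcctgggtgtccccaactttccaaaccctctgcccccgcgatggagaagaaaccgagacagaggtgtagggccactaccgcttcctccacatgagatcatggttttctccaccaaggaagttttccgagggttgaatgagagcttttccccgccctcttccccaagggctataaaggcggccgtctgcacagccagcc
Fas (chr19:34290409-34290658, + strand): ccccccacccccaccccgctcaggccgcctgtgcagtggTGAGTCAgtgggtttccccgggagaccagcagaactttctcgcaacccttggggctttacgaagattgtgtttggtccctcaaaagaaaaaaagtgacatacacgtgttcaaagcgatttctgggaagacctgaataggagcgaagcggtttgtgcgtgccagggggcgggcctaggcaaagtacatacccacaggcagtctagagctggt
Tnfsf14 (chr17:57194182-57194431, - strand): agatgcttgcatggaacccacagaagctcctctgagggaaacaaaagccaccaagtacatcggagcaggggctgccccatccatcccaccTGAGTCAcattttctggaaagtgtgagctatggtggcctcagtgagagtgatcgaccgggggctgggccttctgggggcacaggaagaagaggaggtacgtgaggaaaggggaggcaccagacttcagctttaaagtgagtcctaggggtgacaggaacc

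Calls of members, like those over all genes, depended on single libraries. Tnfsf9, Tnfsf13b and Tnfrsf9 were called with any 1 library left out, and the other 7 called members each lost the call at least once. Leaving out overexpression 2 left 4 risen and 0 fallen members, and leaving out control 2 left 3 and 0. Without control 1 there were 8 risen and 1 fallen, without control 3 7 and 0, without overexpression 1 7 and 2, and without overexpression 3 8 and 5. Leaving out control 1 and overexpression 3 together gave 11 and 5. Over all genes tested, 463 rose and 250 fell without overexpression 2, and 454 and 280 without control 2. The counts were 856 and 783 without control 1, and 528 and 388 without control 3. They were 728 and 483 without overexpression 1, 1657 and 1800 without overexpression 3, and 1922 and 2022 without control 1 and overexpression 3. For overexpression 3 alone against the controls, Tnfrsf9 was the single member called, and all 10 called members kept their direction. The summed level of 8 neutrophil markers, mainly S100a8 and Mmp8, was 193 to 601 CPM with overexpression and 18.4 to 22.9 CPM in controls. It was lowest in overexpression 3 within its group, as were 6 of the 7 risen members. Of these markers 3 were tested, and all 3 rose (S100a8, Mmp8 and Camp). Ly6g had 0 counts in all 6 libraries, and Mpo had 3 counts, all in control 1. The 6 dendritic cell markers summed to 18.9 to 28.8 CPM with overexpression and 4.63 to 7.08 CPM in controls. Clec9a and Ccr7 rose, and Cd209a had 0 counts with overexpression and 1, 2 and 0 counts in control 1, 2 and 3. The part of such cells in the members' values was not tested.

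**Figure D5:**
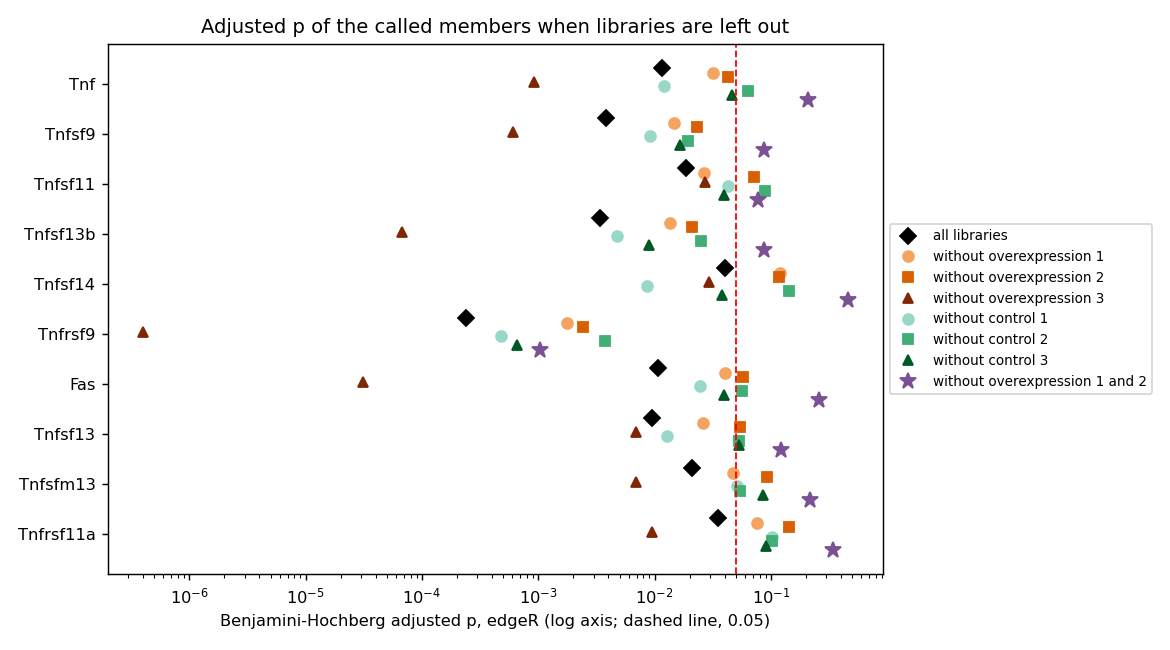
Benjamini-Hochberg adjusted p from edgeR (log axis, dashed line at 0.05) for the 10 called members with all libraries (diamond), with each library left out, and for overexpression 3 alone against the controls (star). Tnfrsf9 lies left of the line in every fit shown, and the stars of the other 9 genes lie to its right.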

How the data were processed

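Raw counts of reads in genes were deposited by the authors as 1 table covering the 6 libraries, made with a stranded mRNA kit per the labels' protocols. Per the submitters' processing notes, featureCounts 1.5.0-p3, DESeq2 1.20.0 and mm10 were used. The sources used here do not name the aligner, annotation release or strand setting, so overlapping and antisense genes may share reads. Of the 54532 identifiers, 54495 matched GENCODE mouse release 21 on the same build.

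Counts were tested as deposited with edgeR 4.0.16 in R 4.3.3 (TMM scaling, filterByExpr defaults with groups given, 13454 genes kept, quasi-likelihood fit with the robust option, group as the only term, Benjamini-Hochberg adjustment over all genes at 0.05). CPM used TMM-scaled library sizes, and levels per kb the union of exons. Standard errors are the log2 change divided by the square root of F. The test was tested on simulated data. Where a group had no counts, its limit was taken as 3 counts in total. Intervals and such limits cover counting error only. Alternatives were other scalings, DESeq2 1.42.0, limma-voom 3.58.1, no filter, a replicate block, a stricter threshold and leaving out libraries.

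Every member is named, with the superfamily genes lacking the prefix and up to 6 risen and 6 fallen signalling genes by smallest p. Signalling genes named beyond these were chosen after their values were seen. Members, lists, motifs and rules were chosen with earlier results of these data known. Library pairs within a group differed beyond sampling noise (chi-square per degree of freedom at least 41.8). Of the signalling genes, 1 is counted but not reported here by name or in the plot.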

Additional observations from a re-analysis of the deposited data

How the results depend on the processing

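All 10 called members kept their direction under every alternative, and 109 of their 140 alternative fits stayed past the threshold. At an adjusted p of 0.01, 3 members rose and 1 fell, 2 ligands and 1 receptor rose, 9 signalling genes rose, and 421 genes of all were higher and 250 lower. With library size as the only scaling 9 signalling genes rose. Without a filter on low counts 1 signalling gene fell, and 1457 genes were higher and 1460 lower. With DESeq2, 1207 genes were lower. Whether replicate numbers pair the libraries was not settled. Correlations of deviations were 0.0941, 0.0053 and 0.327 for libraries 1, 2 and 3 of the same number. Between libraries of different numbers they were -0.232 to 0.190. With the replicate block 7 members rose, 2 fell and 1 signalling gene fell. Tnfrsf11a was the member whose call was lost under the block (adjusted p = 0.051). Leaving out 1 library gave 3 to 8 risen and 0 to 5 fallen members, 2 to 5 risen ligands, 1 to 3 risen receptors, 9 to 19 risen and 0 to 2 fallen signalling genes, 454 to 1657 genes higher and 250 to 1800 lower. Leaving out control 1 and overexpression 3 together, chosen after seeing the data, gave 11 risen and 5 fallen members, 5 risen receptors, 2 fallen signalling genes, and 1922 genes higher and 2022 lower. Leaving out overexpression 1 and 2 together, also chosen after seeing the data, gave 1 risen and 0 fallen members, 0 risen ligands, 1 risen receptor, 5 risen signalling genes, and 261 genes higher and 87 lower. With fewer libraries the tests have fewer degrees of freedom, and the cause of the other changes was not tested.

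The log2 difference of Rfx1 ranged from -0.10 to 1.37 with 1 library left out. The highest value came without control 1 (edgeR adjusted p = 0.024). Rfx1 had 1.59 without control 1 and overexpression 3 (edgeR adjusted p = 3.4e-05) and -0.25 without overexpression 1 and 2. Uncalled differences also changed sign, none with an adjusted p under 0.59. With library size only, Tnfrsf1a had -0.022, Tnfrsf1b -0.12 and Ltbr -0.14. With limma-voom Tnfsf10 had 0.41 and Tnfsf15 -0.21, and with the replicate block Tnfsf10 had 0.077. Without control 1 and overexpression 3, Ltb had 0.31 and Tnfsf10 0.65. Without overexpression 1 and 2, Tnfrsf1a had -0.14, Tnfrsf10b 0.44, Tnfrsf25 -1.22, Ltbr -0.13, Tnfrsf18 -0.80 and Eda2r 0.67. With 1 library left out the ranges were -0.59 to 0.081 for Ltb, -1.05 to 0.95 for Tnfsf10, -0.31 to 0.19 for Tnfrsf10b, -0.27 to 0.70 for Tnfrsf25, -0.025 to 0.29 for Tnfrsf1b, -0.18 to 0.24 for Ltbr, -1.17 to 0.11 for Eda2r and -0.044 to 0.70 for Edaradd.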

Other observations

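Risen genes differed in how overexpression 3 compared with overexpression 1 and 2. For overexpression 3 alone against the controls, Tnfaip3 had a log2 difference of 1.49, against 1.52 with all libraries, and Nfkbia 1.42, against 1.54. Tnip3 had 2.09, against 2.04, and Relb 1.36, against 1.44. These genes and Birc3 were the 5 signalling genes called in that comparison (edgeR adjusted p 0.019 to 0.046). Fas had 0.71 for overexpression 3 alone, against 1.97 with all libraries, and Cd40 had 0.97, against 2.47. Both comparisons share the controls and overexpression 3, and the difference between these genes was not tested.

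The lysozyme gene Lyz1, which is closely related to Lyz2, had 332, 299 and 58.5 CPM in overexpression 1, 2 and 3 and 261, 148 and 77.8 CPM in control 1, 2 and 3. It was thus highest in the libraries in which Lyz2 was lowest. Reads of these similar genes may be shared.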
